A study of Saccharomyces cerevisiae with 12 samples.

Results

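Furfural is an aldehyde released when plant biomass is broken down, and it slows yeast fermentation. Gene expression of 2 strains of Saccharomyces cerevisiae was compared after 6 h with 70 mM furfural. One strain is labelled TAL-expressing (MT8-1X/TAL-405) and the other is labelled as co-expressing TAL and ADH (MT8-1X/TAL-ADH). The comparison rests on 4 of the 12 arrays of the series, 2 runs of each strain. The members were taken from the labels alone: strain, 70 mM and run. Both strains share the MT8-1X background and the element labelled TAL, so the named difference between them is ADH in place of the 405 element. The series also holds a control strain (MT8-1X/404-405) and all 3 strains at 0 mM, 2 runs each, after the same 6 h. These 8 arrays served to estimate the spread and to set values side by side. Which genes were introduced is not spelled out in the labels. TAL is taken here to be TAL1, for transaldolase, and ADH to be ADH1, for alcohol dehydrogenase, without proof from the labels. Promoters, copy numbers and the number of clones behind each strain are not given in the sources used here. Nothing in the labels says that the 2 runs were separate cultures, so every p-value is set against a run-to-run spread that could be purely technical. In bulk RNA from a culture, fewer cells expressing a gene and less RNA per cell cannot be told apart.

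Yeast survives furfural largely by reducing it to the alcohol, a reaction that draws NADPH or NADH and is shared among many aldehyde reductases and alcohol dehydrogenases. The pentose phosphate pathway, in which transaldolase works, supplies NADPH and also carries the carbon of xylose. Aldehydes and oxidants are sensed in yeast by transcription factors such as Yap1, which switches on reductases, thioredoxin and glutathione genes and efflux pumps. A stressed culture also lowers the genes for making ribosomes.

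Each value below is a level, the log2 of the background-subtracted spot signal relative to the 75th percentile of its array, or a difference between levels in log2, with the standard error (SE) of the fit and 2 arrays per group. A level of 0 is therefore the signal that 75% of gene probes do not reach, and levels of different genes are not compared, since probes differ in brightness. For brevity, TAL-ADH arrays are the 2 arrays labelled TAL-ADH 70 mM, and TAL arrays the 2 labelled TAL 70 mM. Both groups were well measured: between 5969 and 6074 of 6256 gene probes were detected on each of the 4 arrays. The runs of the TAL-ADH arrays correlated at 0.981 over the 6083 genes kept, with 231 genes differing by over 1 log2, and the runs of the TAL arrays at 0.960, with 618 such genes.

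Before any gene is described, 2 facts about the arrays have to stand beside every result. The TAL-ADH arrays lay on the slide that held the control strain at 0 mM, and the TAL arrays on the slide that held the control strain at 70 mM, so slide and group cannot be told apart in this comparison. The arrays also crossed their furfural labels. On the first principal component of the 12 arrays, which held 61.5% of the variance, the TAL-ADH 70 mM arrays stood at -43.2 and -47.0. The control 0 mM arrays stood there too, at -44.5 and -42.8, as did the TAL-ADH 0 mM arrays at -39.1 and -42.0. The TAL 70 mM arrays stood at 36.9 and 54.9, the control 70 mM arrays at 37.8 and 53.9, and the arrays labelled TAL 0 mM at 31.6 and 43.5. Thus 2 groups did not lie with their furfural label: TAL-ADH 70 mM lay with the untreated control, and TAL 0 mM lay with the treated one. The mean profile of TAL-ADH 70 mM correlated at 0.992 with control 0 mM over genes and at 0.865 with TAL 70 mM. Group names therefore mean the libraries so labelled throughout, and whether a label, the slide or the strain underlies a difference was not tested.

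The TAL-ADH and TAL arrays differed in a large share of the transcriptome. By limma with Benjamini-Hochberg adjustment over 6083 genes, 1940 genes passed an adjusted p of 0.05, which is 31.9% of those tested. Of these, 1092 (18%) were higher and 848 (13.9%) lower in the TAL-ADH arrays. The difference was at least 1 log2 for 1532 of the called genes and at least 2 log2 for 516, of which 265 were higher and 251 lower. In 4368 genes (71.8%) both arrays of one group lay above both of the other. The count rested on single arrays: it was 964 without TAL 70 mM run 2, 1146 without TAL-ADH 70 mM run 1 and 951 without TAL-ADH 70 mM run 2. The median difference over all genes was 0.10, and it moved to -0.03 when arrays were scaled to their medians and to -0.04 with another background correction, so differences are to be read against a shift of this size.

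**Figure D1:**
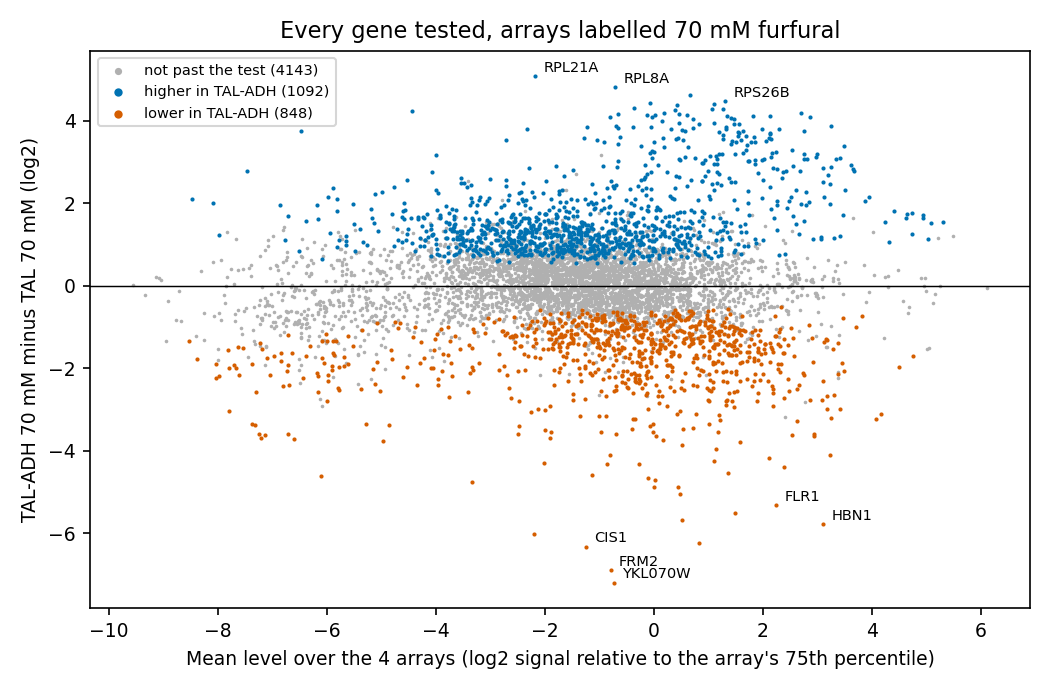
Difference between the arrays labelled TAL-ADH 70 mM and TAL 70 mM (log2, y axis) against the mean level over the 4 arrays (log2 signal relative to the 75th percentile, x axis), 1 point per gene; blue points are higher and orange points lower in TAL-ADH at an adjusted p under 0.05, grey points did not pass. The 1092 higher and 848 lower genes include both bright and dim probes, and the differences run from -7.20 in YKL070W to 5.08 in RPL21A.

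The genes that define the strains were examined next. TAL1, the transaldolase of the pentose phosphate pathway, stood at 2.77 and 2.87 on the TAL arrays and at 3.58 and 4.46 on the TAL-ADH arrays. Both TAL-ADH arrays were above both TAL arrays, and the difference of 1.20 ± 0.34 passed the test (adjusted p = 0.0245), although both strains are labelled as carrying TAL. It did not pass with scaling to the array median (0.0522), nor without TAL 70 mM run 1 (0.0879), TAL 70 mM run 2 (0.0907) or TAL-ADH 70 mM run 2, which left a difference of 0.76 (adjusted p = 0.184). Over all 12 arrays, TAL1 was lowest in the control strain at 70 mM, at 0.54 and 0.89, followed by the control strain at 0 mM, at 2.34 and 2.81. The TAL 70 mM arrays overlapped with the control 0 mM arrays in this order, and the TAL-ADH 70 mM arrays with the arrays labelled TAL 0 mM (3.44 and 3.98) and TAL-ADH 0 mM (3.65 and 3.96).

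ADH1, the main alcohol dehydrogenase of fermentation, stood at 4.70 and 4.37 on the TAL arrays and at 5.98 and 6.20 on the TAL-ADH arrays. Its difference was 1.55 ± 0.42 (adjusted p = 0.0205), in the direction that the ADH label names. The control strain at 0 mM, whose label names no ADH, stood at 6.21 and 6.38, above both TAL-ADH 70 mM arrays. The TAL-ADH 0 mM arrays stood at 5.01 and 6.38 and so spanned most of this range. The call at 70 mM was lost without TAL 70 mM run 2 (0.115), TAL-ADH 70 mM run 1 (0.0666) or TAL-ADH 70 mM run 2 (0.111). An ADH1 probe may also take up RNA of close relatives in this gene family.

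URA3 and XKS1 were lower on the 70 mM arrays of both TAL-bearing strains than on any other array of the series. URA3, an enzyme of uracil synthesis that often serves as a selection marker in yeast, stood at 0.64 and 0.03 on the TAL arrays and at 1.18 and 0.99 on the TAL-ADH arrays. All other 8 arrays lay between 3.27 and 5.23, with no overlap. The 2 groups themselves differed by 0.75 ± 0.36, which did not pass the test (adjusted p = 0.147). XKS1, the xylulokinase that brings xylulose into the pentose phosphate pathway, showed the same order, at 2.57 and 2.41 on the TAL arrays and 2.67 and 2.71 on the TAL-ADH arrays against 3.26 to 4.25 elsewhere. Its difference between the 2 groups was 0.20 ± 0.23 (adjusted p = 0.54). The arrays labelled TAL 0 mM and TAL-ADH 0 mM did not share these low levels, at 3.27 and 4.11 and at 3.91 and 4.50 for URA3. Low URA3 thus went with the 70 mM label in both TAL-bearing strains, on different slides, whereas the principal component put those groups at opposite ends.

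Other markers did not set these groups apart from the rest of the series. LEU2, of leucine synthesis, stood at 0.46 and -0.49 on the TAL arrays and at 1.64 and 1.13 on the TAL-ADH arrays, a difference of 1.41 ± 0.52 (adjusted p = 0.0685) that passed with quantile normalization (0.0416), with the 4 arrays alone (0.0438) and without either TAL-ADH 0 mM array (0.0467). TRP1, of tryptophan synthesis, overlapped, at 2.42 and 3.54 against 1.98 and 2.81 (adjusted p = 0.567). ADE2, of adenine synthesis, was lower by a small amount in the TAL-ADH arrays, at 0.12 and -0.27 against 0.88 and 0.59 (difference -0.81 ± 0.22, adjusted p = 0.0207). That call was lost with the 4 arrays alone (0.073) and without TAL 70 mM run 1 (0.109) or TAL-ADH 70 mM run 2 (0.162). The probe for HIS3 was too dim to be tested.

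**Figure D2:**
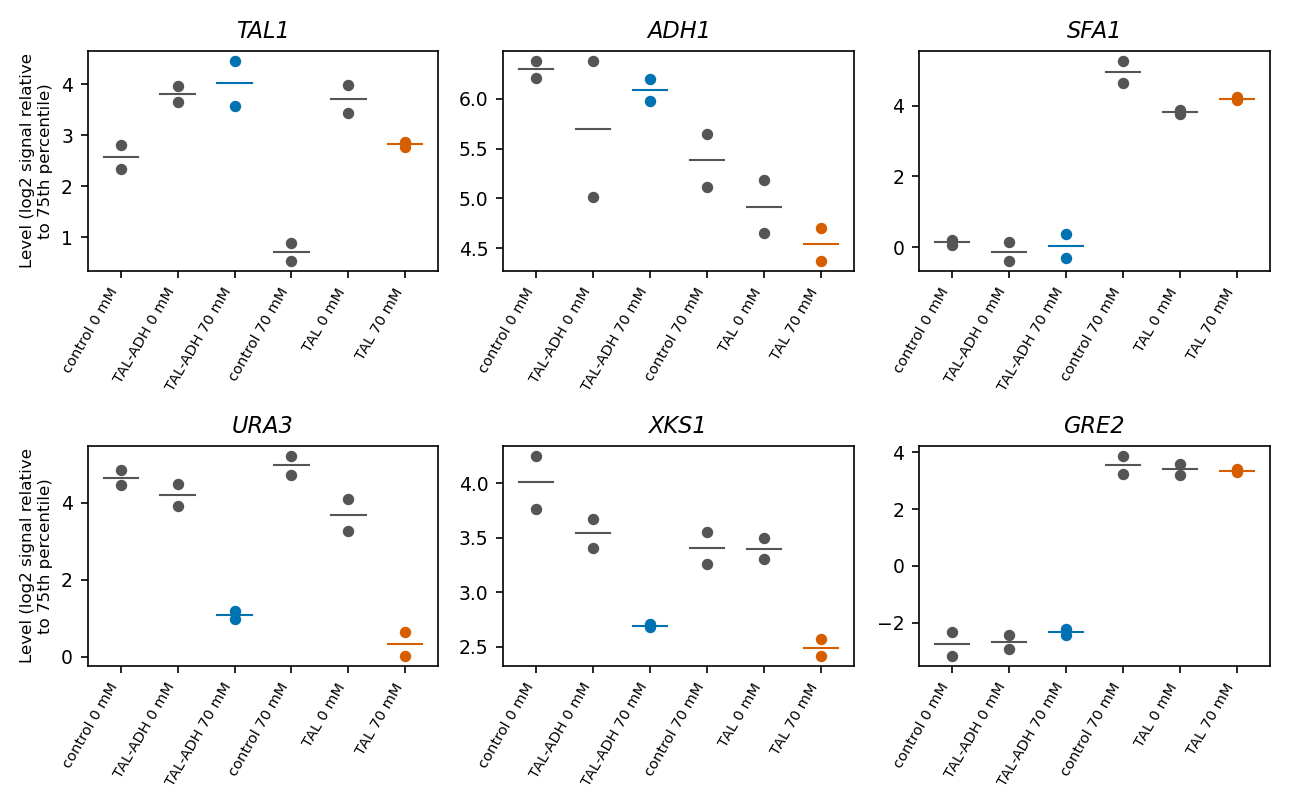
Level of 6 genes on all 12 arrays (log2 signal relative to the 75th percentile, y axis) by labelled group (x axis); each point is 1 array, each line the mean of 2, blue is TAL-ADH 70 mM and orange TAL 70 mM. SFA1 and GRE2 put TAL-ADH 70 mM with the control at 0 mM and TAL 0 mM with the control at 70 mM, whereas URA3 and XKS1 are lowest in the TAL and TAL-ADH groups labelled 70 mM.

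The genes with the largest differences were lower in the TAL-ADH arrays, and several encode enzymes that act on aldehydes or oxidants. YKL070W, a gene of unknown function, stood at 2.83 and 2.89 on the TAL arrays and at -3.86 and -4.82 on the TAL-ADH arrays. It differed by -7.20 ± 0.45 (adjusted p = 2.28e-05), 147-fold on this scale. FRM2, a nitroreductase-like protein, stood at 2.45 and 2.85 against -4.15 and -4.32 (difference -6.88 ± 0.27). Its relative HBN1 was at 5.91 and 6.11 against 0.37 and 0.07, a 55.3-fold difference of -5.79 ± 0.22 (adjusted p = 1.38e-06 for both).

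The remaining 7 of these 10 genes had the same form, with both TAL arrays high and both TAL-ADH arrays low, as the rule for choosing them required. They were OSI1 (-6.23 ± 0.45), GRE2, a methylglyoxal and furfural reductase (-5.67 ± 0.34), AAD4, an aryl-alcohol dehydrogenase homologue (-5.52 ± 0.33), FLR1, a multidrug transporter of the plasma membrane (-5.31 ± 0.21), CIS1 (-6.32 ± 0.33), YDR278C (-6.01 ± 0.22) and YLR108C (-5.05 ± 0.28). GRE2, for example, stood at 3.30 and 3.41 on the TAL arrays and at -2.21 and -2.43 on the TAL-ADH arrays. None of the 10 lost its call in any of the alternatives tried. The 10 largest rises, from 5.08 in RPL21A to 4.27 in RPL43B, were all genes of cytosolic ribosomal proteins. The list was led by RPL21A, at -4.09 and -5.34 on the TAL arrays and 0.35 and 0.37 on the TAL-ADH arrays (5.08 ± 0.43, adjusted p = 7.21e-05).

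**Figure D3:**
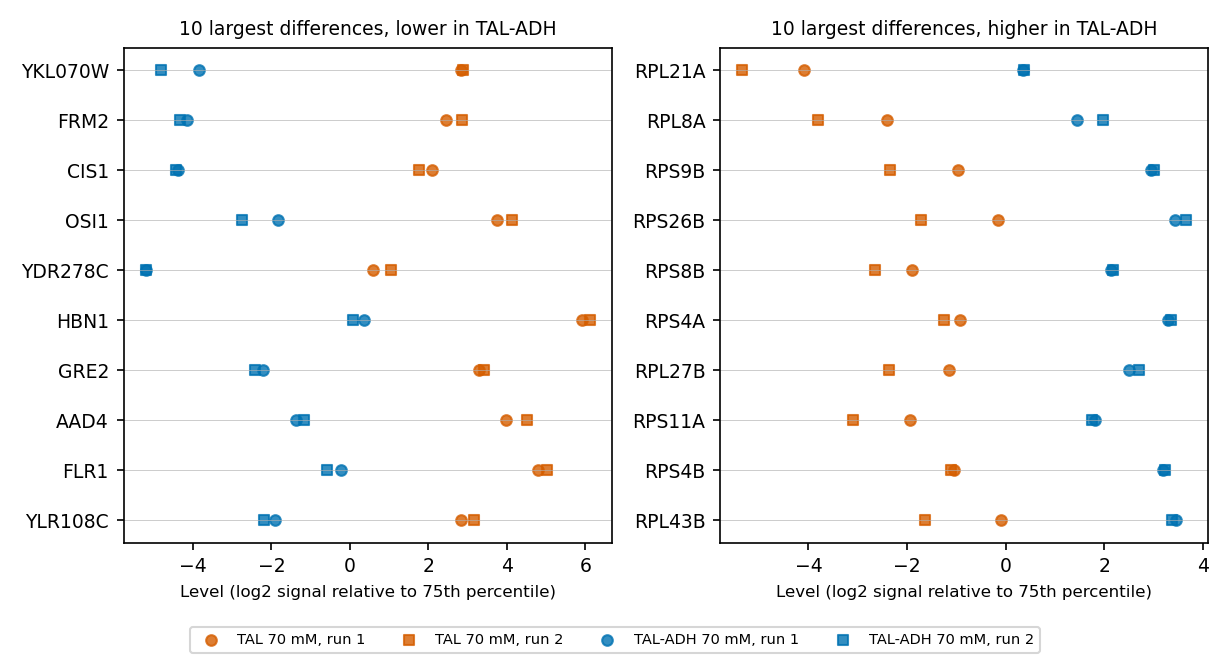
Level (log2 signal relative to the 75th percentile, x axis) on each of the 4 arrays for the 10 genes with the largest lower (left) and the 10 with the largest higher (right) difference; orange is TAL 70 mM, blue TAL-ADH 70 mM, circles run 1 and squares run 2. The groups are apart in every row because only genes without overlap were eligible. In most of the ribosomal protein genes at right the TAL run 2 array lies below the TAL run 1 array.

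The genes were then read by 42 lists of pathways and complexes. For each list the members with the largest differences were singled out. Of the 132 called genes so named across the comparison, 86 kept their call in every alternative, and the text draws on these unless it says otherwise. A member that moved against its list is named for that reason, after its values were seen. The share of all genes called, 18% higher and 13.9% lower, is the level against which each list's count should be read. The 2 groups did not overlap in 71.8% of all genes, and members were named for their large differences. That the groups were apart in a named member therefore adds no support. Counts in brackets after a list give the lowest and highest count when 1 of the 12 arrays was left out. Probes of near-identical genes, such as paired ribosomal protein genes, MAL12 and MAL32, EFT1 and EFT2, SSB1 and SSB2, the AAD genes and HXT13, HXT15 and HXT16, may share signal.

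Aldehyde reductases and related oxidoreductases were lower as a group in the TAL-ADH arrays. Of 30 members measured, 18 fell (18 to 18) and 1 rose, and the median difference was -2.08 against 0.10 for all genes. The member that rose was YGL039W, an aldehyde reductase-like gene, at 0.19 and -0.72 on the TAL arrays and 1.18 and 1.02 on the TAL-ADH arrays (1.36 ± 0.35, adjusted p = 0.0169), and no member rose without TAL 70 mM run 2 or either TAL-ADH 70 mM array. OYE3 and OYE2, the Old Yellow Enzymes that reduce unsaturated aldehydes, both fell, OYE3 from 5.59 and 5.82 to 2.36 and 2.58 and OYE2 from 4.44 and 4.59 to 2.46 and 2.45. ARI1, an aldehyde reductase that takes furfural, was at -3.87 and -5.88 on the TAL arrays and at -3.01 and -3.69 on the TAL-ADH arrays, and its difference of 1.53 ± 0.82 did not pass (adjusted p = 0.183). GRE3, the aldose reductase that turns xylose into xylitol, was at -0.08 and -0.41 against -0.71 and -0.68 (-0.45 ± 0.24, adjusted p = 0.184).

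Alcohol dehydrogenases went both ways. SFA1, the glutathione-dependent formaldehyde dehydrogenase, stood at 4.15 and 4.25 on the TAL arrays and at 0.36 and -0.32 on the TAL-ADH arrays (-4.18 ± 0.31, adjusted p = 3.57e-05), an 18.1-fold difference. ADH7, an NADPH-dependent alcohol dehydrogenase, stood at -0.42 and 0.19 against -3.45 and -3.86 (-3.54 ± 0.34, adjusted p = 0.000128). ADH6, its close relative in function and a furfural reductase, moved in the opposite direction, from -1.15 and -1.33 to 0.43 and 1.48 (2.19 ± 0.39, adjusted p = 0.00279). In none of these 3 genes did the groups overlap.

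ADH5, a minor isozyme, was higher by 1.23 ± 0.27 (adjusted p = 0.00938), a call lost without TAL 70 mM run 2 (0.0722) or TAL-ADH 70 mM run 2 (0.0612). ADH2, the isozyme that oxidises ethanol, was at 1.21 and 2.33 on the TAL arrays and -0.60 and 0.69 on the TAL-ADH arrays, with no overlap and with run 2 above run 1 in both groups (-1.72 ± 0.86, adjusted p = 0.155). In the list of 13 pyruvate decarboxylase and alcohol dehydrogenase genes, 4 rose (2 to 5, fewest without TAL 70 mM run 2 or TAL-ADH 70 mM run 2) and 4 fell (3 to 4). ALD4, the mitochondrial aldehyde dehydrogenase, fell from 4.41 and 4.95 to 1.41 and 1.96 (-3.00 ± 0.44, adjusted p = 0.00117). The other calls among 11 aldehyde dehydrogenase and acetyl-CoA synthetase genes were PUT2, which acts in proline breakdown (-0.86), and ACS2, an acetyl-CoA synthetase (1.34), both lost in some alternatives.

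The thioredoxin, glutathione and peroxide defence genes were lower in the TAL-ADH arrays. Of 39 measured, 22 fell (20 to 23) and 1 rose, with a median difference of -1.23. SRX1, sulfiredoxin, which repairs oxidised peroxiredoxins, stood at 1.95 and 2.94 on the TAL arrays and at -1.92 and -2.96 on the TAL-ADH arrays (-4.89 ± 0.47, adjusted p = 0.00013). ECM4, a glutathione transferase of the omega class, stood at 3.34 and 3.93 against -1.16 and -0.65 (-4.54 ± 0.34, adjusted p = 3.62e-05). Both groups were well apart in both genes. The list also held TRX2, thioredoxin, TRR1, thioredoxin reductase, and GSH1, which begins glutathione synthesis, at differences of -3.11, -2.60 and -2.80. DOT5, a nuclear thiol peroxidase, was the member that rose, from -3.18 and -2.86 to -1.81 and -1.59 (1.32 ± 0.23, adjusted p = 0.00252).

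YAP1 itself was lower by 2.14 ± 0.35, at 2.50 and 3.34 on the TAL arrays and 0.73 and 0.84 on the TAL-ADH arrays (adjusted p = 0.00207). Among 19 stress transcription factors, 11 fell (7 to 12, fewest without TAL 70 mM run 2) and 1 rose. CIN5, a basic leucine zipper factor of the Yap family, fell from 1.08 and 1.29 to -1.37 and -1.56 (-2.65 ± 0.37, adjusted p = 0.000846). The 2 paralogous general stress activators differed in direction. MSN2 stood at 1.28 and 1.19 on the TAL arrays and -0.68 and -0.71 on the TAL-ADH arrays (-1.93 ± 0.30), and MSN4 at -0.97 and -0.94 against 0.07 and 0.09 (1.04 ± 0.28, adjusted p = 0.0218). The MSN4 call was lost without any 1 of the 4 arrays. MSN4 and MSN2 were chosen for naming after their values were seen, as were OYE2, OYE3, TRX2, TRR1 and GSH1 above.

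Efflux pumps and their regulators were lower too. Lists can share members: FLR1 counts both here and among the thioredoxin, glutathione and peroxide defence genes, so these counts are not wholly separate. Of 27 drug efflux and drug resistance genes, 13 fell (10 to 14) and 1 rose, with a median difference of -1.07. SNQ2, a multidrug transporter of the ATP-binding cassette family, stood at 4.48 and 4.71 on the TAL arrays and at 0.13 and 0.27 on the TAL-ADH arrays (-4.39 ± 0.23, adjusted p = 8.45e-06). RSB1, which confers resistance to sphingoid long-chain bases, stood at 1.13 and 1.21 against -3.15 and -3.69 (-4.59 ± 0.32, adjusted p = 2.91e-05). QDR2, a multidrug transporter that also carries potassium, was the member that rose, from -3.14 and -3.52 to -1.47 and -1.72 (1.73 ± 0.25, adjusted p = 0.00105).

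Protein quality control genes were also lower. Of 37 proteasome genes, 32 fell and none rose, with a median of -1.25. The count was 12 to 33 with 1 array left out, and was over 1.5 times smaller without TAL 70 mM run 2 or either TAL-ADH 70 mM array. RPN4, the transcription factor that drives proteasome genes, stood at 3.88 and 3.71 on the TAL arrays and at 1.86 and 1.48 on the TAL-ADH arrays (-2.12 ± 0.25, adjusted p = 0.000365). RPN10, a ubiquitin receptor of the proteasome, fell by 1.84 ± 0.29, and ECM29, which tethers the core to the cap, fell by 2.10 ± 0.35. In all 3 genes both TAL arrays were above both TAL-ADH arrays.

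Of 40 heat shock protein and chaperone genes, 25 fell and 3 rose, with a median of -1.65. The count of falls was 7 to 26, and was over 1.5 times smaller without either TAL 70 mM array or without TAL-ADH 70 mM run 2. HSP30, a membrane protein that restrains the plasma membrane proton pump, stood at 5.21 and 5.37 on the TAL arrays and at 1.49 and 0.87 on the TAL-ADH arrays (-4.11 ± 0.29, adjusted p = 3.47e-05). HSP82, the inducible Hsp90, differed between the TAL-ADH runs: it stood at 4.64 and 4.31 on the TAL arrays but at 2.74 and 0.64 on the TAL-ADH arrays (-2.78 ± 0.80, adjusted p = 0.0273), a call that some alternatives lost. The 3 that rose were SSB1 and SSB2, Hsp70 proteins that sit on the ribosome, and MGE1, the nucleotide exchange factor of mitochondrial Hsp70. SSB1 stood at -0.08 and -0.79 on the TAL arrays and 2.70 and 2.72 on the TAL-ADH arrays (3.15 ± 0.33, adjusted p = 0.000194).

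Sulfur genes were lower in the TAL-ADH arrays. Of 31 sulfate assimilation and methionine genes, 22 fell (19 to 23) and none rose, with a median of -1.96. MET32, a zinc finger activator of this pathway, stood at 1.59 and 2.17 on the TAL arrays and at -2.07 and -2.80 on the TAL-ADH arrays (-4.31 ± 0.34, adjusted p = 5.8e-05). MET16, which reduces activated sulfate and draws reducing power from thioredoxin, stood at 2.24 and 2.66 against -0.78 and -2.05 (-3.87 ± 0.50, adjusted p = 0.000576). MUP3, a methionine permease, stood at 3.23 and 3.25 against -0.58 and -1.46 (-4.26 ± 0.44, adjusted p = 0.000187). The groups were apart in all 3 genes.

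Iron genes leaned the same way. Of 23 measured, 10 fell and 1 rose, FET4, a low-affinity iron transporter (1.57), a call lost without TAL 70 mM run 2 or either TAL-ADH 70 mM array. The count of falls was 4 to 10, and was over 1.5 times smaller without either TAL 70 mM array or without TAL-ADH 70 mM run 2. ISU2, a scaffold for iron-sulfur clusters, fell from 1.13 and 1.56 to -1.74 and -2.52 (-3.48 ± 0.38, adjusted p = 0.000238), and MRS4, which imports iron into mitochondria, by 2.66 ± 0.32. Of 34 autophagy genes, 10 fell (6 to 10, fewest without TAL 70 mM run 2 or TAL-ADH 70 mM run 2) and 2 rose. ATG40, a receptor for autophagy of the endoplasmic reticulum, stood at -0.19 and 0.00 on the TAL arrays and -3.07 and -2.68 on the TAL-ADH arrays (-2.78 ± 0.22, adjusted p = 5.8e-05). ATG1, the kinase that starts autophagy, fell by 2.80 ± 0.47.

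Central carbon metabolism split by pathway. Of 17 glycolysis genes, 13 rose in the TAL-ADH arrays and none fell, with a median of 1.54. The count was 7 to 14, and was over 1.5 times smaller without TAL 70 mM run 2 or TAL-ADH 70 mM run 2. TDH2, a glyceraldehyde-3-phosphate dehydrogenase, stood at -0.90 and -1.19 on the TAL arrays and at 1.89 and 2.11 on the TAL-ADH arrays (3.05 ± 0.35, adjusted p = 0.000333). ENO1, enolase, rose from 1.94 and 1.80 to 4.19 and 4.88 (2.67 ± 0.43), and PGK1, phosphoglycerate kinase, from 2.17 and 1.81 to 4.10 and 4.83 (2.47 ± 0.33). The groups did not overlap in any of the 3.

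Within the pentose phosphate pathway, 3 of 13 genes rose, TAL1, TKL1 and RKI1, and 2 fell, ZWF1 and NQM1, a second transaldolase (-1.504, lost in some alternatives). ZWF1, glucose-6-phosphate dehydrogenase and the first source of NADPH in the pathway, was lower in the TAL-ADH arrays, at 0.54 and 0.77 against 2.24 and 2.83 (-1.88 ± 0.29, adjusted p = 0.00146). RKI1, ribose-5-phosphate isomerase of the branch that does not oxidise, was higher, at -1.37 and -1.39 against -2.71 and -3.19 (1.57 ± 0.28, adjusted p = 0.00305). TKL1, the main transketolase, was at 3.27 and 3.73 against 2.13 and 2.60 (1.13 ± 0.35, adjusted p = 0.0377). The TKL1 call was lost without any 1 of the 4 arrays (adjusted p from 0.0673 to 0.205), without either control 0 mM array (0.0523) and with median scaling (0.0764).

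Of 24 genes of gluconeogenesis, the glyoxylate cycle and carboxylate transport, 9 fell (3 to 9, over 1.5 times fewer without TAL 70 mM run 2 or TAL-ADH 70 mM run 1) and none rose. ATO2, a putative ammonium and acetate transporter, fell from 1.52 and 1.77 to -1.25 and -0.57 (-2.56 ± 0.37, adjusted p = 0.00107). Of 20 peroxisomal fatty acid oxidation genes, 2 rose and 3 fell, neither well above the share of all genes, with a median of -0.32. CTA1, the peroxisomal catalase, fell from 2.45 and 3.47 to -0.62 and -0.57 (-3.56 ± 0.48, adjusted p = 0.000717), while PEX11, which shapes peroxisomes, rose by 1.46 ± 0.23. GPP1, a glycerol-3-phosphate phosphatase, was the 1 of 11 glycerol genes that passed, rising from 1.40 and 0.45 to 3.15 and 2.95 (2.13 ± 0.36, adjusted p = 0.00239). NTH2, a neutral trehalase, fell from 1.71 and 2.25 to -0.89 and -1.35 (-3.10 ± 0.43, adjusted p = 0.000823).

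Among genes for the use and uptake of sugars, calls went in both directions. For hexose transporters and sensors, both counts lay near the shares of all genes, 18% higher and 13.9% lower. The same held for the falls among maltose, isomaltose and sucrose genes. MAL32 and MAL12, near-identical maltases, stood at -3.49 and -2.80 and at -2.86 and -2.27 on the TAL arrays, and at 0.16 and 1.22 and at 0.73 and 1.79 on the TAL-ADH arrays. Of 13 genes for maltose, isomaltose and sucrose use, 5 rose (2 to 5, over 1.5 times fewer without TAL 70 mM run 2 or either TAL-ADH 70 mM array) and 2 fell. The maltases differed by 3.84 ± 0.42 and 3.83 ± 0.41 (adjusted p = 0.000238 and 0.000223). HXT16, a hexose and polyol transporter, rose from -4.96 and -4.75 to -2.70 and -1.78 (2.61 ± 0.34, adjusted p = 0.000653). HXT13, of the same group, was not detected on either TAL array and was at least 7.11-fold higher in the TAL-ADH arrays (adjusted p = 0.00231), a call lost with another background correction (0.683). HXT11 was not detected on either TAL-ADH array and was at least 6.24-fold lower there (adjusted p = 0.00829), lost without TAL 70 mM run 1 (0.0508). Of 24 hexose transporter and sensor genes, 4 rose (4 to 5) and 3 fell (1 to 4, fewest without TAL 70 mM run 1), with a median of -0.69.

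The lists with the highest medians were those of the cytosolic ribosome. Of 56 genes of the small subunit, 55 rose in the TAL-ADH arrays (54 to 55), with a median difference of 3.57 and a range of 0.37 to 4.62. Of 82 genes of the large subunit, 80 rose (75 to 80), with a median of 3.22 and a range of 0.04 to 5.08. RPS4A, of the small subunit, stood at -0.93 and -1.25 on the TAL arrays and at 3.29 and 3.34 on the TAL-ADH arrays (4.41 ± 0.21, adjusted p = 5.17e-06). RPL8A, of the large subunit, stood at -2.42 and -3.80 against 1.43 and 1.97 (4.81 ± 0.48, adjusted p = 0.000159).

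RPS27A, RPL10 and RPL15B were the 3 members that did not pass. RPS27A was at 1.24 and 1.29 on the TAL arrays and 1.71 and 1.56 on the TAL-ADH arrays (0.37 ± 0.23, adjusted p = 0.25). Its paralog RPS27B rose from 0.87 and 1.22 to 3.65 and 3.65 (2.61). RPL15B, at -0.52 and -0.22 against -0.48 and -0.18, overlapped between groups, while its paralog RPL15A rose from 1.37 and 1.24 to 3.94 and 4.21 (2.77). RPL10, which has no paralog, was at 3.83 and 4.002 against 4.07 and 4.27 (0.25 ± 0.23, adjusted p = 0.439). RPS27B and RPL15A were named after their values were seen.

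Translation and ribosome assembly moved with it by smaller amounts. Of 38 translation factor genes, 27 rose (18 to 28) and 1 fell, with a median of 1.27. EFT1, elongation factor 2, stood at 1.41 and 1.49 on the TAL arrays and 3.62 and 3.90 on the TAL-ADH arrays (2.31 ± 0.23, adjusted p = 0.000144). HEF3, an alternative form of elongation factor 3, was the member that fell, from 0.61 and 0.62 to -1.09 and -0.81 (-1.57 ± 0.31, adjusted p = 0.00556).

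Of 77 ribosome assembly genes, 23 rose and none fell, with a median of 0.89. The count was 6 to 28, and was over 1.5 times smaller without TAL 70 mM run 2 or either TAL-ADH 70 mM array. NOP58, of the box C/D particles that guide ribosomal RNA methylation, stood at -0.84 and -2.15 on the TAL arrays and at 0.95 and 0.91 on the TAL-ADH arrays (2.42 ± 0.46, adjusted p = 0.00417). CBF5, the pseudouridine synthase of the box H/ACA particles, rose by 2.35 ± 0.44. In these genes the TAL runs were further apart than the TAL-ADH runs. Of 27 RNA polymerase I and III genes, 7 rose (0 to 8, over 1.5 times fewer without TAL 70 mM run 2, either TAL-ADH 70 mM array or either control 0 mM array) and 2 fell. Of 73 genes of mitochondrial ribosomal proteins, 17 rose (3 to 22, over 1.5 times fewer without either TAL 70 mM array or TAL-ADH 70 mM run 2) and 1 fell, with a median of 0.53.

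Among amino acid genes, 6 of 9 members of lysine synthesis were higher and none lower (3 to 6, over 1.5 times fewer without TAL 70 mM run 2 or TAL-ADH 70 mM run 1). LYS9, saccharopine dehydrogenase, rose from -1.47 and -2.19 to 2.87 and 1.42 (3.98 ± 0.58, adjusted p = 0.00115). LYS12, homo-isocitrate dehydrogenase, rose from 0.86 and 0.13 to 3.81 and 3.33 (3.08 ± 0.31), and LYS21, homocitrate synthase, by 2.01 ± 0.20. ILV5, an early enzyme of branched-chain amino acid synthesis in mitochondria, rose from -0.91 and -2.12 to 2.32 and 2.55 (3.95 ± 0.49, adjusted p = 0.000511). GCN4, the activator of amino acid synthesis genes, rose from 2.63 and 2.59 to 4.29 and 4.37 (1.72 ± 0.23, adjusted p = 0.000727). Of 55 genes of other amino acids, 4 rose (2 to 6, fewest without TAL 70 mM run 2 or either TAL-ADH 70 mM array) and 5 fell (0 to 5, fewest without TAL-ADH 70 mM run 2).

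**Figure D4:**
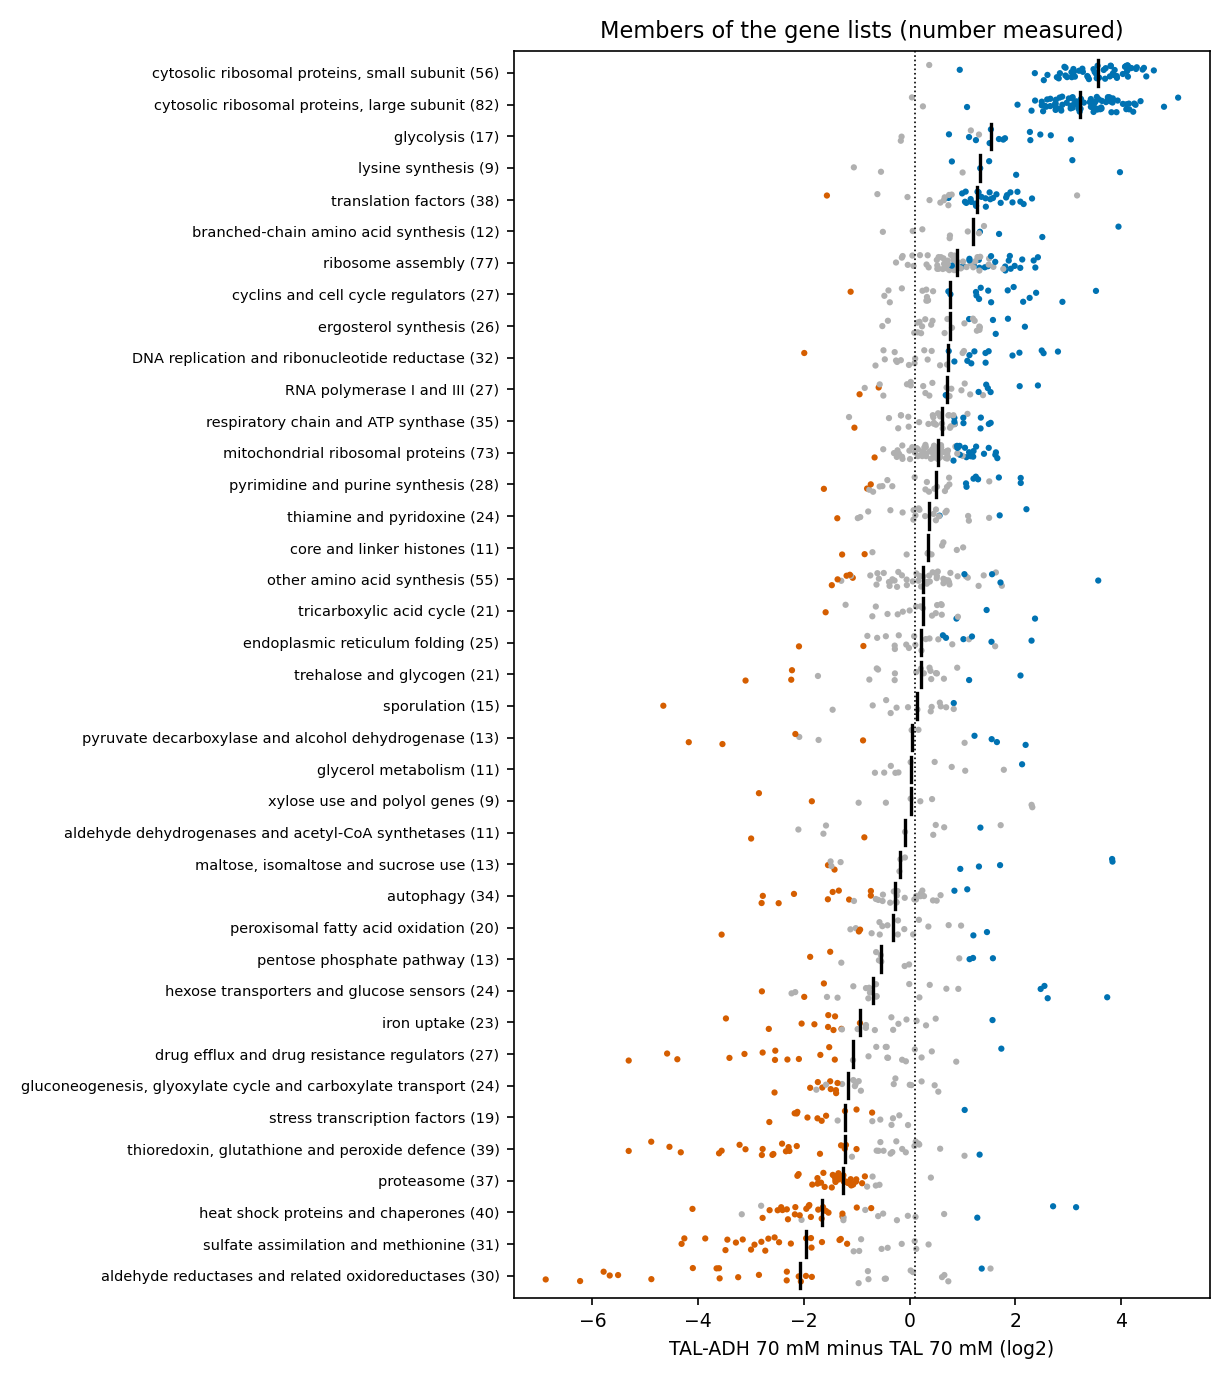
Difference between TAL-ADH 70 mM and TAL 70 mM (log2, x axis) for each measured member of the gene lists with 9 or more members (y axis, number measured in brackets), ordered by median; blue passed the test higher, orange passed lower, grey did not pass, black bars are list medians and the dotted line is the median of all genes. Ribosomal protein genes lie at the right end with medians of 3.57 and 3.22, and aldehyde reductases at the left with -2.08; the vertical spread within a row has no meaning.

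Genes of the cell cycle were higher in the TAL-ADH arrays. Of 27 cyclins and cell cycle regulators, 15 rose and 1 fell, and of 32 genes of DNA replication and ribonucleotide reductase, 14 rose and 1 fell. These counts of rises were 9 to 15 and 7 to 15, each over 1.5 times smaller without TAL 70 mM run 2 or TAL-ADH 70 mM run 2. PCL1, a cyclin of the G1 phase, stood at -3.99 and -4.95 on the TAL arrays and at -1.38 and -0.52 on the TAL-ADH arrays (3.52 ± 0.59, adjusted p = 0.00219). ASH1, a repressor active in daughter cells, rose by 2.89 ± 0.37. POL30, the sliding clamp of DNA polymerase, stood at -2.57 and -3.19 against -0.30 and 0.15 (2.80 ± 0.38, adjusted p = 0.000754), and RNR1, the large subunit of ribonucleotide reductase, at -2.28 and -1.81 against 0.04 and 0.93 (2.53 ± 0.46, adjusted p = 0.00346).

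The members that fell were WHI5, which holds back entry into the cell cycle (-1.12, lost without TAL 70 mM run 2 or either TAL-ADH 70 mM array), and TAH11, a licensing factor of replication origins (-1.99). HHF1, a histone H4 gene, was lower by 1.28 ± 0.23 (adjusted p = 0.00297), the largest difference of 11 histone genes. Of these 2 fell (1 to 2, with 1 without either control 0 mM array or any 1 of the 4 arrays) and none rose (0 to 2, above 0 only without a TAL-ADH 0 mM array). Respiratory chain and ATP synthase genes rose in 9 of 35 (4 to 12, over 1.5 times fewer without TAL 70 mM run 2 or either TAL-ADH 70 mM array), with COX4 at -1.04 and -1.16 against 0.31 and 0.48 (1.497 ± 0.19, adjusted p = 0.000534). Of 5 a-specific genes 2 rose (0 to 2, fewest without TAL 70 mM run 2 or TAL-ADH 70 mM run 2) and 1 fell, and of 4 alpha-specific genes 2 fell (1 to 2, fewest without TAL 70 mM run 2 or TAL-ADH 70 mM run 1). Of 8 haploid-specific genes 1 fell (0 to 2, fewest without TAL 70 mM run 1 or TAL-ADH 70 mM run 2), and of 15 sporulation genes 1 rose (0 to 2, changed without any 1 of the 12 arrays) and 1 fell.

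Of 26 ergosterol genes, 5 rose and none fell, and the count ran from 0 to 10 as single arrays of the comparison or of control 0 mM were left out. ERG1, squalene epoxidase, stood at 0.02 and -1.61 on the TAL arrays and 1.27 and 1.49 on the TAL-ADH arrays (2.18 ± 0.61, adjusted p = 0.0246), a call some alternatives lost. Among 28 pyrimidine and purine genes, 8 rose (4 to 8, over 1.5 times fewer without TAL 70 mM run 2 or either TAL-ADH 70 mM array) and 3 fell (0 to 3, fewest without TAL-ADH 70 mM run 2). FUR4, the uracil permease, rose by 2.10 ± 0.38, and FUR1, which salvages uracil, by 1.69 ± 0.21, beside the URA3 levels given above. Of 25 genes of endoplasmic reticulum folding, 6 rose and 2 fell, with a median of 0.22. ERO1, which oxidises folding proteins in the endoplasmic reticulum, fell by 2.09 ± 0.41, while SIL1, a nucleotide exchange factor there, rose by 1.55 ± 0.22. YDL124W, an aldo-keto reductase (-2.85 ± 0.36), and YPR1 (-1.85 ± 0.29) were the 2 of 9 xylose and polyol genes that fell, and none rose.

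The same 4 arrays were then set beside the other 8. The strain difference without furfural, TAL-ADH 0 mM minus TAL 0 mM, shares no array and no slide with the comparison at 70 mM, and its 4 arrays lay together on 1 slide. It called 1566 genes, 25.7% of those tested. Of the 1940 genes called at 70 mM, 1861 (95.9%) had the same sign at 0 mM, and 1231 were also called there in that direction, which is 63.5% of the genes called here and 78.6% of those called there. GRE2, for example, differed by -5.67 at 70 mM and -6.07 at 0 mM, RPL21A by 5.08 and 4.84, and SFA1 by -4.18 and -3.96. Only 3 genes were called in opposite directions, CTF13, IMA5 and KRE29. IMA5 differed by 0.96 at 70 mM and -0.77 at 0 mM. CTF13 differed by -1.19 and 1.33, but was detected on only 1 of the TAL-ADH 70 mM arrays, and KRE29 was not detected on any of the 4 arrays at 70 mM, so no value is given for it.

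The test of the difference between the 2 strain differences asks whether the gap between the strains differed between the furfural labels. The strains shared a slide at 0 mM but not at 70 mM, so a slide effect does not cancel in this test. It called 0 of 6083 genes by limma, with 406 at an unadjusted p under 0.05. Before adjustment, its median 95% interval reached 0.986 log2 to either side. The adjusted test needs larger shifts than this, and PGK1 at 1.82 ± 0.47 did not pass it. The 0 calls therefore do not show that shifts above about 1 log2 were absent. Without TAL-ADH 0 mM run 1 it called 58 genes, 4 higher and 54 lower, while every other array left out gave 0. TAL1 differed by 1.20 at 70 mM and 0.10 at 0 mM, and TKL1 by 1.13 and 0.32. PGK1 differed by 2.47 and 0.65, and GCN4 by 1.72 and 0.34, and none of these 4 genes passed the test of the difference (adjusted p from 0.717 to 0.895).

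The furfural difference of the control strain, written as control 0 mM minus control 70 mM, uses the other arrays of the same 2 slides. It called 2156 genes (35.4%), and 1892 (97.5%) of the 1940 genes called between the strains had the same sign in it. Of these, 1407 were also called in that direction, which is 72.5% of the genes called here and 65.3% of those called there, and none was called in the opposite direction. These shared calls too rest on the same spread of each gene. The strain difference at 70 mM thus took the form of the control strain without furfural set against the control strain with it. The list medians of the strain difference and of the control strain's difference were 3.57 and 3.00 in small-subunit ribosomal proteins, -2.08 and -2.05 in aldehyde reductases, -1.96 and -1.99 in sulfur genes and -1.25 and -0.52 in the proteasome. They had opposite signs in the respiratory chain (0.61 and -0.12), the tricarboxylic acid cycle (0.25 and -0.29) and trehalose and glycogen (0.21 and -0.31). The same held for pyrimidine and purine synthesis (0.49 and -0.03), pyruvate decarboxylase and alcohol dehydrogenase (0.04 and -0.23) and xylose and polyol genes (0.02 and -0.20).

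Since both differences lie across the same slides, an additive slide effect cancels in the difference between them. It called 0 genes by limma (472 at an unadjusted p under 0.05), and 0 under each alternative run. Before adjustment, the median interval of this difference reached 0.986 log2 to either side. The 0 calls therefore do not show that the strain difference equalled the control strain's difference. CIS1 departed by 2.42 ± 0.47 and ADH7 by -1.91 ± 0.48, and neither passed the test (adjusted p = 0.594 for both). The median departure was 0.67 in small-subunit ribosomal proteins and -0.69 in the proteasome. The control strain's TAL1 difference was 1.86 beside 1.20 between the strains, and its ADH1 difference 0.92 beside 1.55. Its ADH7 difference was -1.63 beside -3.54, and its ADH6 difference 1.00 beside 2.19.

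**Figure D5:**
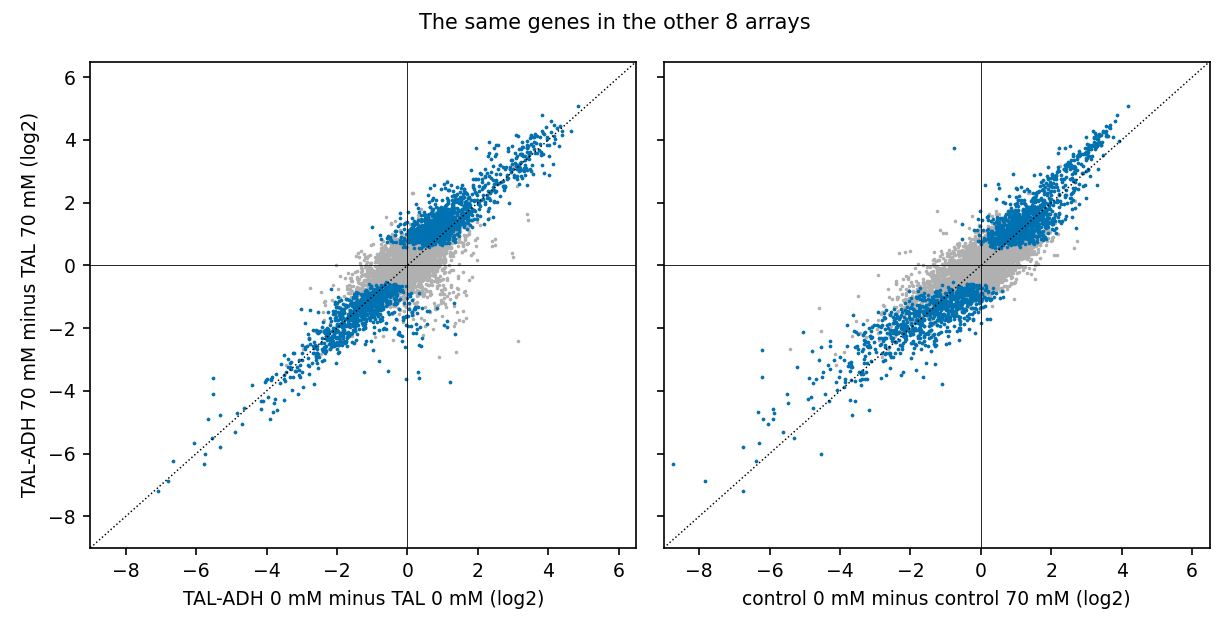
Difference between TAL-ADH 70 mM and TAL 70 mM (log2, y axis of both panels) against the strain difference at 0 mM (left x axis) and the control strain's 0 mM minus 70 mM difference (right x axis), 1 point per gene; blue points were called at 70 mM and the dotted line marks equal differences. Of the 1940 called genes, 1861 have the same sign on both axes at left and 1892 at right.

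The 70 mM groups were also set against the control group on their own slide. TAL-ADH 70 mM against control 0 mM, which differ in strain and by label in furfural, gave 2 called genes of 6083 (0.0329%), 1 in each direction (0.0164%). They were URA3, lower by 3.58 in TAL-ADH 70 mM (difference -3.58, adjusted p = 0.0235), and IMA5, an isomaltase, higher by 2.19 (adjusted p = 0.0287). TAL 70 mM against control 70 mM gave 5 called genes (0.0822%), 3 of them lower (0.0493%) and 2 higher (0.0329%). This second comparison had 984 genes at an unadjusted limma p under 0.05, beside 163 in the first. URA3 was again lower (-4.64, adjusted p = 0.00254), with CIT3, a mitochondrial citrate and methylcitrate synthase (-2.69), and GPP1 (-2.65), while EFM6 (1.84), a methyltransferase of elongation factor 1, and YBR292C (2.22) were higher. No aldehyde reductase and no ribosomal protein gene was among these 7 calls, but calls this few cannot show whether those families differed.

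Genes known by locus alone differed from named genes. The 885 genes given no other name here include 400 whose probes had no match in RefSeq. These 885 were dimmer, with a median level of -3.72 against -1.003 for the 5198 named genes. Their median difference was -0.45 at 70 mM, with 70 higher and 162 lower, beside 0.18 for named genes, with 1022 higher and 686 lower. At 0 mM the same medians were 0.01 and 0.04. In the control strain's 0 mM minus 70 mM difference, which lies across the same 2 slides as the comparison at 70 mM, they were -0.53 and 0.27. Chromosomes did not stand apart from each other: the median difference by chromosome lay between -0.03 and 0.25, and none of 13 mitochondrially encoded genes was called.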

How the data were processed

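RNA of 12 samples, 2 runs of 3 strains at 0 and 70 mM furfural, was hybridised to single-colour Cy3 Agilent arrays. Per the file headers, the deposited intensity files were written by Agilent Feature Extraction 10.1.1.1, and its processed signal, an intensity already corrected for background, was used. The authors' deposited value table, in log2 units, served as an alternative. Its column medians run from -0.170 to 0.0577, and it differs by at most 0.00908 log2 from the scanner values once those are scaled to the 75th percentile and each gene is centred on its median over arrays.

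Of 6256 gene probes with 7 spots each, unmarked spots were averaged in log2 and each array's 75th percentile was subtracted (R 4.3.3). A probe was detected on an array where over 50% of its spots were well above background, and a probe was kept if some group had it detected on both arrays, which left 6083. Array number limits the precision. Group means of all 6 groups were fitted with limma 3.58.1, and p-values were adjusted over all 6083 genes by Benjamini-Hochberg. Probes were named from the files, with symbols updated from the RefSeq table of assembly R64 for 5760 of 6256. The test was checked on simulated data.

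Named genes were the 10 largest rises and falls detected on all 4 arrays without overlap, the 3 largest called members of each of 42 gene lists, and a fixed set of genes for TAL, ADH, markers and furfural reduction. The members and lists were chosen with earlier results of these data known. Alternatives changed the background correction, scaling, dim-probe filter, spot summary, arrays in the fit and the replicate block, and left out each array in turn. Leaving out both TAL 0 mM arrays was added after the data were seen.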

Additional observations from a re-analysis of the deposited data

How the results depend on the processing

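The count of genes called between TAL-ADH 70 mM and TAL 70 mM, 1940, ran from 951 to 2052 when 1 array was left out. It was 1534 with normexp background correction (722 higher and 812 lower), 1899 with median scaling (895 and 1004), 1907 with quantile normalization (961 and 946) and 1769 with the 4 arrays alone. It was 1898 without both TAL 0 mM arrays, an alternative chosen after seeing the data. The balance of higher and lower calls thus turned under normexp and median scaling. The test of the strain difference at 70 mM against that at 0 mM gave 0 to 58 calls with 1 array left out, and the test against the control strain's furfural difference gave 0 to 0. Run numbers are shared between groups: run differences correlated at 0.429 between TAL 70 mM and TAL-ADH 70 mM, at 0.0435 between control 70 mM and TAL-ADH 0 mM, and at 0.142 to 0.861 between the other groups. Since 1 correlation was under 0.1, the numbers were not taken to pair the samples, although most groups shared a run effect. With the replicate block, 2862 genes were called, among them ADH2 (adjusted p = 0.000681) and ARI1 (adjusted p = 0.00575), which did not pass without it. Of 132 called named genes, 131 kept their sign in every alternative. The exception was AGA2, which turned to -0.40 with normexp (adjusted p = 0.678), and the cause was not tested. Without TAL 70 mM run 2, 39 of the named calls were lost, without TAL-ADH 70 mM run 2, 35, and without TAL-ADH 70 mM run 1, 30. With 2 arrays per group, small differences and dim probes are the least certain.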
